A study of Homo sapiens with 12 samples.

Results

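Gene expression was compared between differentiated Caco-2 cells given surfactant-coated silver nanoparticles (AgPURE) at 2.5 µg/mL and the same cells given silver ions, as silver nitrate (AgNO3), at 0.5 µg/mL. The comparison holds 6 of the 12 arrays of the series, 3 per group, chosen by the agent and dose in the labels, and 19775 genes with 1 value each. The other arrays are 3 of cells in medium alone and 3 of cells given the nanoparticles at 25 µg/mL, and none of them enters the test. Caco-2, an established line from a human colon carcinoma, differentiates toward absorptive enterocytes when kept confluent. All groups shared passage 22, an age of 21 days after confluence, an exposure of 24 h and a volume of 20 mL. The medium carried 10% serum, 1% insulin-transferrin-selenium and 1% penicillin and streptomycin. Whether the arrays within a group stem from different cultures is not given in the labels, and their spread may be technical. The groups differ in the form of silver, in its dose and in the presence of the surfactant, which was not given alone, and these cannot be told apart here.

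Silver ions bind to the sulfur of cysteines in proteins and peptides. Nanoparticles dissolve in part and release such ions, so cells exposed to particles can meet both forms. The best known transcriptional reactions of epithelial cells to heavy metals run through MTF1, the zinc-sensing factor that turns on metallothionein genes, through NRF2, which turns on genes of glutathione and thioredoxin metabolism, and through HSF1, which turns on heat shock genes. Metallothioneins are small cysteine-rich proteins that hold zinc and copper and also bind silver. Their promoters carry several copies of the metal response element, to which MTF1 binds.

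Of the 9 metallothionein genes measured, RefSeq's promoter table for GRCh38.p14 held 4. The 250 bases before the start of 3 of these are shown because their expression values lay below those of the ion arrays in the nanoparticle arrays, as given further on. Capitals mark each match to the core letters TGCGCNC or TGCACNC of the metal response element on either strand, where N is any base, and sequences run 5′ to 3′ on the strand of the gene. All 3 regions lie on the plus strand of chromosome 16, MT1H at chr16:56669564-56669813, MT1X at chr16:56682220-56682469 and MT2A at chr16:56608334-56608583.
MT1H: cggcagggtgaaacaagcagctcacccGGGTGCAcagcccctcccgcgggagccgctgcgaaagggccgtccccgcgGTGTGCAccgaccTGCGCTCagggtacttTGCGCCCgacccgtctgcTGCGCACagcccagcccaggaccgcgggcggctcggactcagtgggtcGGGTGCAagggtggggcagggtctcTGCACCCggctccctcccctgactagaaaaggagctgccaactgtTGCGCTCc
MT1X: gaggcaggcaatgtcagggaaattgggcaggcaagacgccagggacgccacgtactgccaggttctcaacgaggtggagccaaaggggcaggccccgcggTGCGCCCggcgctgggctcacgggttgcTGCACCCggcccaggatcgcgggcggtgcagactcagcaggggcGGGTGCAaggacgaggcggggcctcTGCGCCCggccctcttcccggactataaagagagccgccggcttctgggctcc
MT2A: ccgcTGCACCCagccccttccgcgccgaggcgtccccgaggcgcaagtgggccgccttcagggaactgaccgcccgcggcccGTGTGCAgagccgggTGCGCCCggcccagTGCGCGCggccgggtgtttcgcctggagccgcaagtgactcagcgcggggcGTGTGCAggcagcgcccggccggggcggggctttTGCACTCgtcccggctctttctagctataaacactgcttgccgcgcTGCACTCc
A script found 8 matches before MT1H, 4 before MT1X, 7 before MT2A and 3 before MT4, whose values did not separate the groups. Of all 35116 regions of this length in the table, 24.8% held at least 1 match, 1.58% at least 3 and 0.37% at least 4. A match is a description of these letters and not evidence of binding.

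The arrays of both groups resembled each other closely. Across all probe sets, Pearson's r lay between 0.994 and 0.996 within the nanoparticle group, between 0.992 and 0.996 within the ion group and between 0.990 and 0.996 across the groups (pairs of arrays, described across probe sets, which are not replicates). Ion replicate 1 stood apart from the other 5 arrays. Its values had the narrowest spread, with a standard deviation over probe sets of 2.10 against 2.16 to 2.19 on the nanoparticle arrays and 2.16 and 2.17 on ion replicates 2 and 3, and its hybridization control probe sets averaged 10.3 against 10.6 to 10.7 on the other 5 arrays. Values that moved most without it are given both ways. The enterocyte markers VIL1, CDH17 and DPP4, a microvillus protein, a cadherin and a brush border peptidase, lay in level percentiles 93, 95 and 89 of all genes over the 6 arrays, whereas SI, ANPEP and KRT20 lay in percentiles 4, 21 and 31, so not every enterocyte marker was bright.

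No gene passed the test between low-dose nanoparticles and ions. By limma's moderated test with Benjamini-Hochberg adjustment, 0 of 19775 genes had an adjusted p under 0.05 (0% called), and the lowest adjusted p was 0.26, that of AKR1B10. An unadjusted p under 0.05 was reached by 1470 genes, 7.43% of those tested, of which 700 (3.54%) were higher and 770 (3.89%) lower in the nanoparticle arrays. This balance depended on the scaling, with 424 higher and 1102 lower after median centring, 92 and 196 with poly-A control scaling and 70 and 717 with hybridization control scaling. In 2644 genes (13.4%) the 3 nanoparticle arrays did not overlap the 3 ion arrays, 1263 of them higher (6.39%) and 1381 lower (6.98%). These shares are the background for every count of list members given here. Without ion replicate 1 the genes with an unadjusted p under 0.05 numbered 936 (4.73%), against 1114 to 1751 when any 1 of the other 5 arrays was left out.

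The data also bounded how large differences could be. Log2 differences, nanoparticles minus ions, ran from -0.84 to 0.77, and no gene differed 2-fold or more. At least 1.5-fold differences were seen in 12 genes in the higher direction and in 4 in the lower, namely AKR1B10, MT1X, MT1F and MT2A. For 19755 genes, 99.9% of the total, the 95% interval of the difference lay wholly within 2-fold in both directions, and for 18822 genes, 95.2%, it lay within 1.5-fold. The median half-width of these intervals was 0.24 on the log2 scale. They come from the spread between 3 arrays per group and, as intervals per gene, are not adjusted for the number of genes. In the same fit on 6 arrays, nanoparticles at 25 µg/mL against the same ion arrays gave 5832 called genes and 614 genes past 2-fold.

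**Figure D1:**
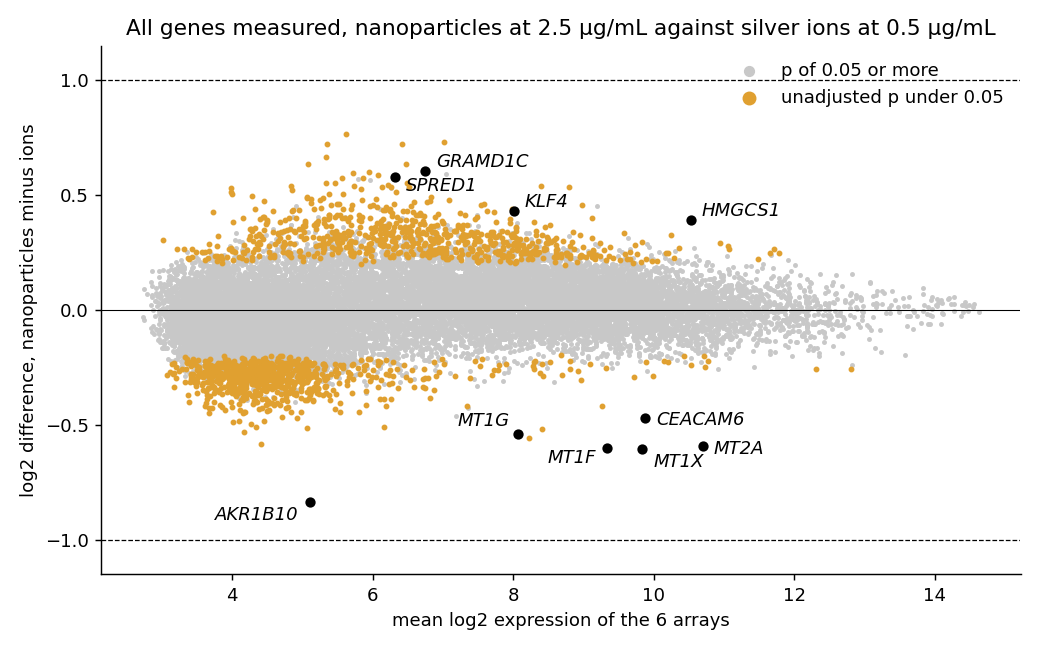
Each point is 1 gene, with its mean log2 expression over the 6 arrays on the horizontal axis and the log2 difference, nanoparticles at 2.5 µg/mL minus ions at 0.5 µg/mL, on the vertical axis. Orange points have an unadjusted p under 0.05 in limma, black points are genes described in the text, and the dashed lines mark 2-fold, which no gene reached.

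The 6 bright metallothionein genes all lay below the ion arrays on average in cells given nanoparticles. MT1G had 7.82, 7.70 and 7.90 in nanoparticle arrays, against 8.36, 8.13 and 8.54 in ion arrays (log2 values of replicates 1, 2 and 3, here and below). MT1F had 9.07, 8.80 and 9.22 in nanoparticle arrays, against 9.34, 9.50 and 10.06 in ion arrays. In both genes every nanoparticle array lay below every ion array. The difference was -0.54 ± 0.12 (SE) for MT1G, with a 95% interval of -0.80 to -0.28, and -0.60 ± 0.18 for MT1F, and limma's adjusted p was 0.66 for each.

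MT1X and MT2A, the brightest of the family, separated the groups by narrow gaps. MT1X had 9.73, 9.10 and 9.79 in nanoparticle arrays, against 9.81, 9.94 and 10.67 in ion arrays. MT2A had 10.65, 10.07 and 10.50 in nanoparticle arrays, against 10.70, 10.84 and 11.46 in ion arrays. The highest nanoparticle array thus almost met the lowest ion array in both, while nanoparticle replicate 2 was the lowest and ion replicate 3 the highest. The differences were -0.60 ± 0.23 for MT1X and -0.59 ± 0.20 for MT2A (SE, adjusted p = 0.66 in limma for each), or 1.52-fold and 1.51-fold higher in the ion arrays.

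MT1H had 8.07, 7.74 and 8.04 in nanoparticle arrays, against 8.14, 8.47 and 8.91 in ion arrays, also without overlap. MT1E had 7.43, 6.80 and 7.18 in nanoparticle arrays, against 7.19, 7.55 and 7.96 in ion arrays, and here nanoparticle replicate 1 lay above ion replicate 1. Nanoparticle replicate 2 was the lowest of the 6 arrays and ion replicate 3 the highest in each of the 6 genes. The remaining members were dim. MT1M lay in level percentile 1 of all genes and differed by -0.13, MT3, a form known from brain, by -0.02, and MT4, known from squamous epithelium, by -0.15, and in these 3 the groups overlapped.

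As a list, 9 of 9 metallothioneins had a negative difference, 5 of 9 without overlap between the groups (background 6.98% in that direction), 5 of 9 at an unadjusted p under 0.05 (background 3.89%) and 0 of 9 after adjustment over all genes. Of the dim members, MT3 turned to 0.05 and MT4 to 0.01 without ion replicate 1, and both were also positive with array weights (0.07 and 0.02) and with the array spread as a covariate (0.07 and 0.08). The median difference was -0.54, where that of all genes was -0.002, and the members' values are not independent, since several probe sets match more than 1 copy of the family. Without ion replicate 1 the median was -0.61, and without ion replicate 3 it was -0.34. Over the 6 bright genes the range was -0.77 to -0.53 without ion replicate 1, -0.44 to -0.23 without ion replicate 3 and -0.49 to -0.26 without nanoparticle replicate 2. Second probe sets differed by -0.71 for MT1F, -0.46 for MT1E and -0.43 for MT1X, whereas that of MT1G, at a mean level of 3.96 in nanoparticle arrays and 3.87 in ion arrays, differed by 0.09. MT1HL1, a further metallothionein locus, had 8.26, 7.97 and 8.21 in nanoparticle arrays, against 8.38, 8.59 and 9.01 in ion arrays.

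The medium arrays, which entered no test here, lay higher still in these genes. MT2A had 11.94, 11.36 and 11.22 and MT1X had 11.10, 10.57 and 10.52 in medium, above all 3 nanoparticle arrays and overlapping the ion arrays. At 25 µg/mL the nanoparticle arrays held MT1X between 14.06 and 14.12. Ion replicate 3 therefore lay within the range of the medium arrays for MT1X and MT2A, while ion replicates 1 and 2 lay below it.

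**Figure D2:**
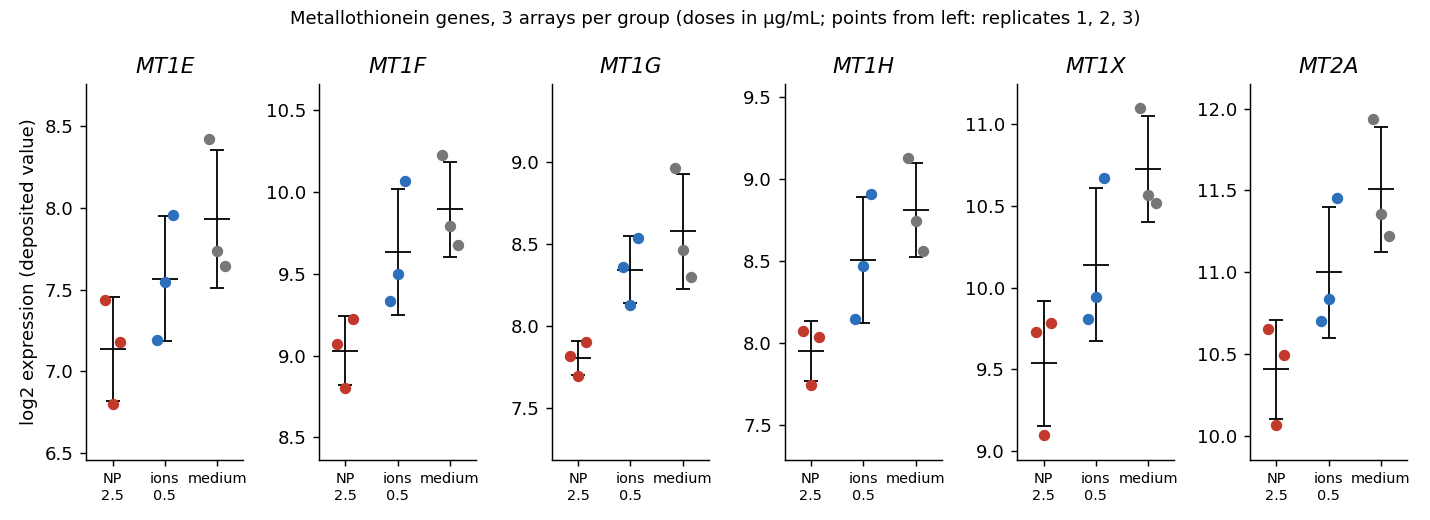
Deposited log2 expression of the 6 bright metallothionein genes in the 3 arrays with nanoparticles at 2.5 µg/mL (red), the 3 with silver ions at 0.5 µg/mL (blue) and the 3 in medium (grey). Black bars show the mean and the standard deviation, every panel spans the same number of log2 units, and the nanoparticle mean is the lowest of the 3 in each panel.

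Genes that move or sense zinc and copper showed no common shift. Of 25 zinc transporters and the sensor MTF1, 12 had a positive and 13 a negative difference, with a median of -0.003. SLC30A1, the zinc exporter of the plasma membrane and a target of MTF1, had 10.31, 10.12 and 10.57 in nanoparticle arrays, against 9.82, 10.24 and 10.30 in ion arrays, an overlapping difference of 0.21 (95% interval -0.11 to 0.54) that was 0.06 without ion replicate 1. Its second probe set of like brightness differed by 0.06. SLC39A8, an importer of zinc and manganese, had 8.20, 8.28 and 8.12 in nanoparticle arrays, against 7.82, 8.12 and 7.80 in ion arrays, without overlap but meeting to 2 decimals at ion replicate 2 (difference 0.29 ± 0.11 SE, adjusted p = 0.66 in limma). Other, dimmer probe sets of SLC39A8 differed by -0.19 to 0.23, and the mean of all its probe sets by 0.045. The intestinal zinc importer gene SLC39A4 and the vesicle exporter gene SLC30A4 differed by 0.36 and 0.27 with overlapping groups, and SLC39A4 by 0.22 without ion replicate 1. SLC39A2, a further importer gene, differed by -0.33, also with overlap, at a level in percentile 35. In the copper list 0 of 14 members had groups that did not overlap (background 13.4%), and 8 of 14 differences were positive. The copper-exporting ATPase gene ATP7B differed by 0.27 (0.04 without ion replicate 1) and the metalloreductase gene STEAP3 by 0.18, while the copper chaperone gene ATOX1 and the transporter gene SLC31A2 differed by -0.21 and -0.22.

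AKR1B10 had the lowest p of all genes. This aldo-keto reductase reduces retinal and reactive aldehydes and is a well known target of NRF2 in human cells. It had 4.63, 4.54 and 4.89 in nanoparticle arrays, against 5.59, 5.44 and 5.53 in ion arrays, so every nanoparticle array lay well below every ion array. The difference was -0.84 ± 0.11 (SE), with a 95% interval of -1.08 to -0.59, or 1.79-fold higher with ions (limma unadjusted p = 1.3e-05, adjusted p = 0.26). It ranged from -0.94 to -0.76 when single arrays were left out, was -0.80 without ion replicate 1, and passed the test only when arrays were scaled on the hybridization controls (-0.93, adjusted p = 0.0077). Its mean lay in level percentile 42 of all genes, and without detection calls the size of a difference this dim is uncertain. Medium arrays had 5.62, 5.21 and 4.97, above all 3 nanoparticle arrays and overlapping the ion arrays.

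NRF2 targets divided evenly by sign only. Of 29 measured, AKR1B10 among them, 14 had a positive and 15 a negative difference, with a median of -0.04 (-0.05 without ion replicate 1). An unadjusted p under 0.05 in limma was reached by 5 of 29, all lower (background 3.89%). Groups without overlap were seen in 4 of 29, also all lower (background 6.98%, or 3.59% of genes above the median level, where 26 of 29 lay). AKR1C1, close in sequence to AKR1C2, so that the probe sets may not tell them apart, had 12.73, 12.58 and 12.72 in nanoparticle arrays, against 12.90, 12.88 and 13.01 in ion arrays, and AKR1C2 differed by -0.26 as well. Their other probe sets differed by -0.22 to 0.06 for AKR1C1 and by -0.12 and -0.14 for AKR1C2. The mean of all probe sets differed by -0.095 for AKR1C1 and -0.17 for AKR1C2. GPX2, the glutathione peroxidase of the gut epithelium, differed by -0.28 with overlapping groups. GCLM, the modifier subunit of glutamate-cysteine ligase, had 8.45, 8.28 and 8.52 in nanoparticle arrays, against 8.64, 8.56 and 8.72 in ion arrays (-0.23 ± 0.10 SE), but its other probe sets differed by 0.03 and 0.09.

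The groups overlapped in HMOX1, SRXN1 and TXNRD1, which are often used as signs of oxidative stress. HMOX1, haem oxygenase 1, had 8.46, 8.84 and 8.86 in nanoparticle arrays, against 8.71, 8.37 and 8.70 in ion arrays, and its difference of 0.12 had a 95% interval of -0.18 to 0.42. SRXN1, which repairs peroxiredoxins, differed by 0.01 with an interval of -0.26 to 0.29, and TXNRD1, thioredoxin reductase 1, by 0.03 with an interval of -0.20 to 0.27. These intervals exclude a 1.5-fold difference either way and leave room for smaller ones.

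Heat shock genes were equally close. None of 23 members had groups without overlap or an unadjusted p under 0.05, against backgrounds of 13.4% and 7.43%, and the median difference was -0.05. DNAJB1, an HSP40 co-chaperone, had 8.94, 8.93 and 9.00 in nanoparticle arrays, against 8.88, 8.84 and 9.05 in ion arrays, a difference of 0.03 with an interval of -0.18 to 0.24. HSPA6, the strictly inducible HSP70, had 5.77, 4.97 and 5.18 in nanoparticle arrays, against 4.70, 5.30 and 6.06 in ion arrays. It scattered more widely within each group than between them, and its interval of -0.70 to 0.60 holds a 1.5-fold difference in both directions. Without ion replicate 1 its difference was -0.38. CRYAB, a small heat shock protein gene, differed by -0.21 with overlapping groups.

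Away from the metal response, CEACAM6 was the brightest of the genes named for their p. This cell adhesion molecule of the intestinal surface had 9.67, 9.63 and 9.63 in nanoparticle arrays, against 10.05, 10.20 and 10.10 in ion arrays. The groups were far apart relative to their spread, with means of 9.65 ± 0.02 in nanoparticle arrays and 10.12 ± 0.07 in ion arrays (SD, n = 3 each), and the difference was -0.47 ± 0.09 (SE, adjusted p = 0.66 in limma). Its second probe set differed by -0.37, and without ion replicate 1 the value was -0.50. The medium arrays had 10.17, 9.92 and 10.17, in the range of the ion arrays for replicates 1 and 3.

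Another 9 genes were named in the lower direction by the smallest p among genes brighter than the median whose groups did not overlap, and 4 of them are MT1G, MT1F, MT1H and MT1HL1. CDX2, a transcription factor that sets intestinal identity, had 5.96, 6.25 and 5.99 in nanoparticle arrays, against 6.38, 6.39 and 6.59 in ion arrays. SPDEF, a transcription factor of goblet cells, had 5.90, 5.93 and 6.06 in nanoparticle arrays, against 6.53, 6.20 and 6.32 in ion arrays. Both differed by -0.39 ± 0.11 (SE). The second CDX2 probe set, dim at a mean level of 3.59 in both groups, differed by 0.01. The other 4 SPDEF probe sets differed by -0.14 to -0.004. HVCN1, a voltage-gated proton channel gene, GPR137 and IFI27L2 differed by -0.39, -0.42 and -0.33, and all 3 had adjusted p values of 0.66 in limma. A second GPR137 probe set of like level differed by -0.07 and a dimmer one by -0.12, and the mean of its probe sets by -0.20.

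In the higher direction the rule named 10 genes of middling level, in level percentiles 50 to 60. GRAMD1C, which encodes a sterol transport protein of the endoplasmic reticulum, had 7.10, 7.10 and 6.96 in nanoparticle arrays, against 6.40, 6.38 and 6.55 in ion arrays (0.61 ± 0.10 SE, adjusted p = 0.63 in limma). SPRED1, an inhibitor of RAS to ERK signalling, had 6.60, 6.66 and 6.56 in nanoparticle arrays, against 5.89, 6.16 and 6.04 in ion arrays (0.58 ± 0.10 SE). The zinc finger gene ZNF124 had 6.22, 6.23 and 6.29 in nanoparticle arrays, against 5.55, 5.58 and 5.81 in ion arrays (0.60 ± 0.10 SE). In all 3 the nanoparticle arrays lay close together above the ion arrays, while the second probe set of ZNF124 differed by 0.03 and the other 2 of SPRED1 by 0.03 and -0.007. The others were CYP19A1, which encodes aromatase (0.58), the interleukin receptor gene IL20RB (0.54), NRP2, which encodes a co-receptor of semaphorins and VEGF (0.54), TMEM154 (0.53), the co-chaperone gene DNAJC6 (0.49), ZC2HC1A (0.42) and BEND7 (0.41), with adjusted p values of 0.66 in limma for each. Other, mostly dimmer probe sets of these genes differed by -0.37 and 0.03 for BEND7, -0.34 to 0.38 for NRP2, -0.21 to 0.18 for CYP19A1 and -0.10 for DNAJC6, and the mean of all probe sets by 0.03 for BEND7 and 0.11 for NRP2. Without ion replicate 1 the 10 differences ranged from 0.38 to 0.58.

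**Figure D3:**
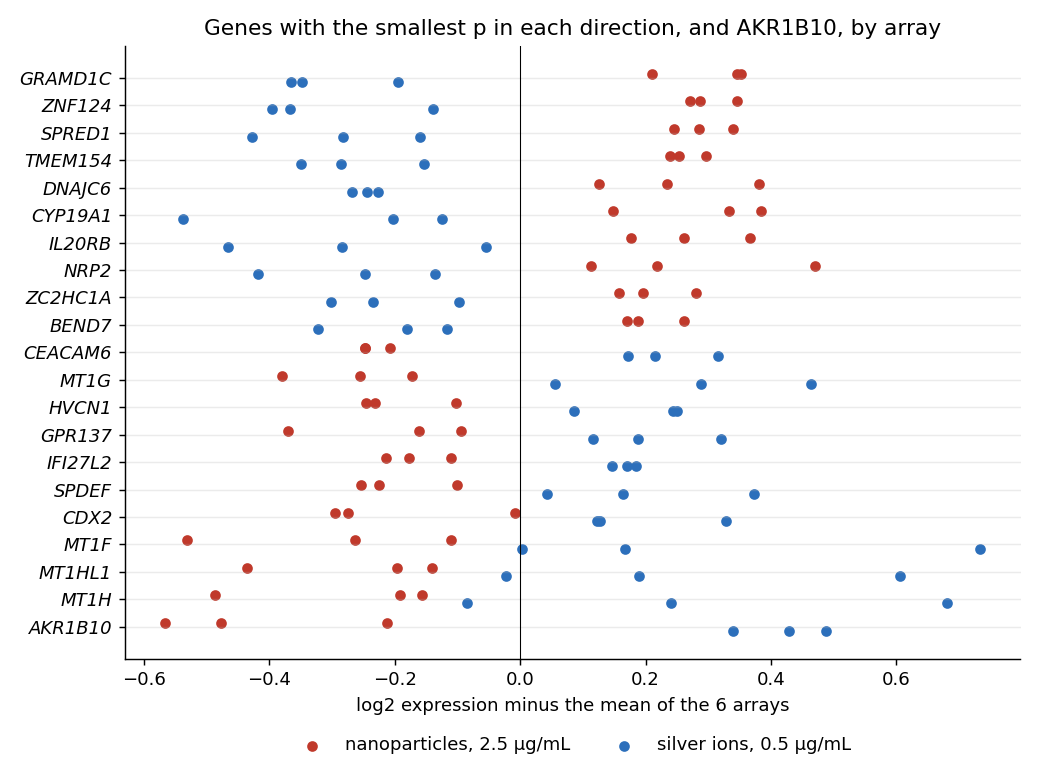
Log2 expression of each array minus the mean of the 6 arrays, for the 10 genes named in the higher direction, the 10 named in the lower direction and AKR1B10. Red points are arrays with nanoparticles at 2.5 µg/mL and blue points arrays with silver ions at 0.5 µg/mL, and in each gene the colours do not overlap, since the genes were chosen for that.

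Immediate early genes, whose transcription reacts within minutes to growth signals and stress, leaned toward the nanoparticle arrays. Of 22 measured, 18 had a positive difference, 4 of 22 had groups without overlap, all higher (background 6.39%, or 9.41% of genes above the median level, where 16 of 22 lay), and 2 of 22 had an unadjusted p under 0.05 (background 3.54%), with a median of 0.09 that was 0.05 without ion replicate 1 and -0.006 with scaling on the hybridization controls. KLF4, a factor of differentiating epithelium, had 8.16, 8.07 and 8.44 in nanoparticle arrays, against 7.82, 7.57 and 7.99 in ion arrays (0.43 ± 0.13 SE), and its second probe set differed by 0.38. JUNB, an AP-1 subunit, had 6.56, 6.76 and 6.75 in nanoparticle arrays, against 6.36, 6.25 and 6.38 in ion arrays (0.36 ± 0.10 SE). Both kept their size without ion replicate 1, at 0.44 and 0.37, whereas FOS, with 5.79, 6.04 and 5.84 in nanoparticle arrays, against 5.17, 5.73 and 5.76 in ion arrays, had 0.33 with it and 0.14 without it. ATF3, a stress-induced factor, differed by 0.33 with overlapping groups.

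The ATF4 response, which raises amino acid synthesis and import under stress, had small differences of nearly uniform sign. Of 24 genes, 23 had a positive difference. The groups overlapped in all 24 and none had an unadjusted p under 0.05, against backgrounds of 13.4% and 7.43%. The median was 0.10, or 0.11 without ion replicate 1, but it was -0.003 without nanoparticle replicate 3 and 0.21 without nanoparticle replicate 2. CHAC1, a glutathione-degrading enzyme, and DDIT3, the factor CHOP, had the largest values, 0.25 and 0.23 (0.41 and 0.18 without ion replicate 1). All 24 lay above the median level of all genes, where positive differences prevailed, as described below. In the list of chaperones and sensors of the endoplasmic reticulum 11 of 20 were positive, and HERPUD1 and XBP1 differed by 0.26 and 0.27 (0.22 and 0.16 without ion replicate 1).

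Proteasome subunits leaned the other way. Of 25 genes, 23 had a negative difference and 7 of 25 had groups without overlap, all lower, against 6.98% of all genes and 3.59% of genes above the median level. Only PSMB2, a subunit of the catalytic core, had an unadjusted p under 0.05, with 10.62, 10.65 and 10.55 in nanoparticle arrays, against 10.85, 10.88 and 10.84 in ion arrays (-0.25 ± 0.09 SE, adjusted p = 0.66 in limma). A second PSMB2 probe set, at 7.36 in nanoparticle arrays and 7.39 in ion arrays, differed by -0.03, and dimmer ones by -0.193 and -0.205. PSMB5, the chymotrypsin-like subunit, differed by -0.18. The median of the list was -0.08, both with and without ion replicate 1, and -0.03 without nanoparticle replicate 3. Of 27 respiratory complex I genes, 22 had a negative difference, with a median of -0.06 that was 0.002 without nanoparticle replicate 3 and -0.12 without nanoparticle replicate 2. NDUFA2 was the lowest at -0.22. Groups without overlap were seen in 2 of 27, both lower (background 6.98%, or 3.59% of genes above the median level, where all 27 lay).

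Cholesterol synthesis genes had the highest median of the 34 lists, 0.15, which was 0.06 without ion replicate 1. Of 16 measured, 13 had a positive difference and 4 of 16 groups without overlap, all higher, against 9.41% of genes above the median level, where all 16 lay. HMGCS1, which makes the precursor of mevalonate, had 10.57, 10.73 and 10.87 in nanoparticle arrays, against 10.03, 10.45 and 10.50 in ion arrays, and ion replicate 1 was the lowest by far (0.39 ± 0.14 SE with it, 0.25 without it). FDPS and MSMO1, enzymes of the later steps, differed by 0.21 and 0.24, or 0.14 and 0.11 without that array. Apolipoprotein and lipid export genes had a median of 0.06 that turned to -0.02 without ion replicate 1, with APOE at 0.16 and APOC2 at -0.21.

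Genes of the absorptive enterocyte split in both directions. Of 25 digestion and absorption genes, 6 of them above the median level, 12 had a positive and 13 a negative difference. Without overlap between the groups, 2 of 25 were higher (background 6.39%) and 3 of 25 lower (background 6.98%). At an unadjusted p under 0.05 in limma, 4 of 25 were higher (background 3.54%) and 3 of 25 lower (background 3.89%). ALPI, intestinal alkaline phosphatase, had 5.96, 5.88 and 5.78 in nanoparticle arrays, against 5.17, 5.72 and 5.62 in ion arrays, a difference of 0.37 that was 0.20 without ion replicate 1. The brush border peptidase gene ENPEP differed by 0.37 with overlapping groups, and LCT, lactase, by -0.36 at a level in percentile 20. Of 18 microvillus and identity genes, 11 were positive, among them KLF5, a factor of intestinal epithelium (0.25, or 0.13 without ion replicate 1). Of 18 junction genes, 15 were positive with a median of 0.08, and the desmosomal cadherin gene DSC2 differed by 0.22. Above the median level, where positive differences prevailed, as described below, lay 17 of the 18. The junction median was 0.05 without ion replicate 1 and -0.008 with hybridization control scaling.

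Selenium and iron genes showed single values rather than a shift. SELENOP, the secreted selenium carrier, had 11.16, 11.25 and 11.19 in nanoparticle arrays, against 10.77, 10.97 and 11.03 in ion arrays (0.28 ± 0.10 SE, 0.20 without ion replicate 1), and GPX1 differed by 0.21, while the list's median over 21 genes was 0.03. CYBRD1, the ferric reductase of the brush border, had 5.45, 5.47 and 5.64 in nanoparticle arrays, against 5.20, 5.02 and 5.37 in ion arrays (0.32 ± 0.11 SE, 0.33 without ion replicate 1), and the median over 17 iron and haem genes was 0.04, and -0.02 without ion replicate 1. In the matrix list the laminin gene LAMB3 differed by 0.40 without overlap, TAGLN, an actin-binding protein gene, by -0.42, and CCN2 and VIM by 0.39 and 0.35, and without ion replicate 1 these were 0.33, -0.24, 0.18 and 0.20.

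Inflammation and interferon genes did not share a direction. Of 19 genes in the NF-kB list, 11 were positive, and 8 of 19 lay above the median level. LCN2, lipocalin 2, had 4.43, 4.46 and 4.34 in nanoparticle arrays, against 4.11, 4.05 and 4.10 in ion arrays, and the chemokine gene CXCL1 had 4.73, 4.61 and 4.76 in nanoparticle arrays, against 5.12, 4.88 and 5.01 in ion arrays. Both separated the groups, in opposite directions, at levels in percentiles 24 and 38. Among 20 interferon-stimulated genes the median was -0.03, or 0.04 without ion replicate 1, with OAS2 and RSAD2, antiviral effector genes, at -0.44 and -0.26 in percentiles 30 and 6. The groups overlapped in OAS2, whose other probe sets, of like level, differed by -0.19 and 0.008.

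The remaining lists stayed close to the median of all genes. Medians were -0.05 for 26 S phase and mitosis genes, with the replication helicase subunit gene MCM3 at -0.17, 0.08 for 15 p53 and DNA damage genes, with RRM2B at 0.22, -0.02 for 26 endocytosis and lysosome genes, with WIPI1 at 0.33 (0.19 without ion replicate 1) and CAV2 at 0.28, -0.003 for 20 hypoxia and glycolysis genes, with NDRG1 at 0.26 (0.14 without ion replicate 1) and LDHA at -0.24, and 0.02 for 22 cytosolic ribosomal protein genes. For 20 drug metabolism genes, 9 of them above the median level, the median was 0.06. Of these 20, 4 had an unadjusted p under 0.05 in limma in the higher direction (background 3.54%), CYP1B1 with 0.33 among them. In the lower direction 1 of 20 did (background 3.89%). For 17 genes of fatty acid oxidation the median was 0.05, and for 14 hepatocyte-type secreted protein genes it was 0.10 and turned to -0.09 without ion replicate 1. In all 34 lists 0 members passed the test over all genes. The sign of the median held in all alternatives for 8 lists and turned in at least 1 for 26. Apart from the metallothioneins, the list medians lay between -0.18 and 0.15.

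**Figure D4:**
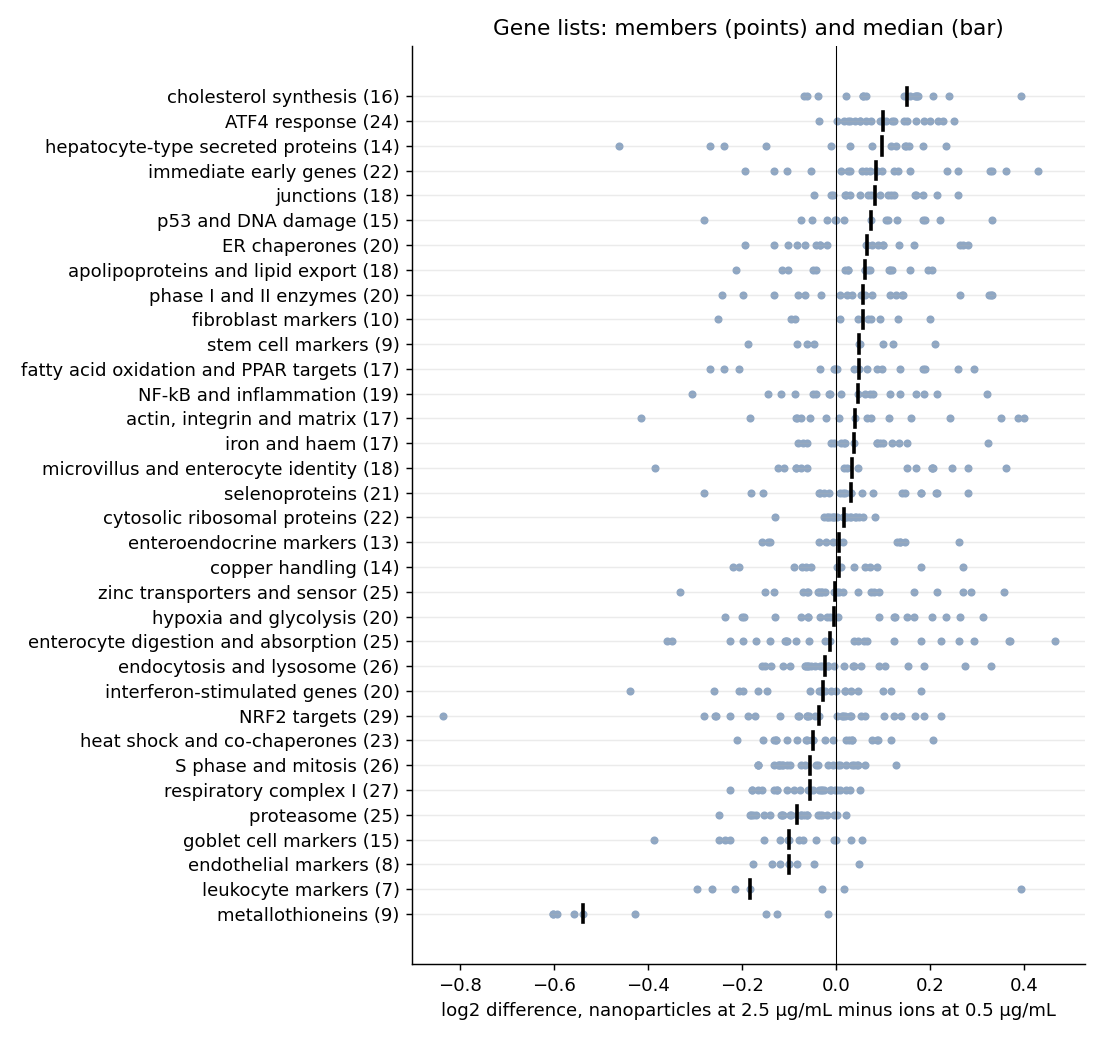
Log2 differences, nanoparticles at 2.5 µg/mL minus ions at 0.5 µg/mL, of the measured members of the 34 gene lists, with the number of members in parentheses. Points are genes and black bars list medians, and the metallothionein bar at -0.54 is the farthest from 0.

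Markers of other cell types were mostly dim, but only 2 of 9 stem cell markers and 9 of 15 goblet cell markers lay below percentile 50. Of 7 leukocyte markers, 5 had a negative difference and 5 lay below percentile 50, and the mean log2 level of the list lay between 5.30 and 5.37 on nanoparticle arrays and between 5.39 and 5.45 on ion arrays. CD14 and ITGAM, receptor genes of myeloid cells, differed by 0.39 and -0.27, in opposite directions, and CD14 by 0.22 without ion replicate 1. Of 15 goblet cell markers, 12 had a negative difference, with SPINK4 at -0.25 (-0.15 without ion replicate 1) beside SPDEF, and the list's mean lay between 5.51 and 5.63 on nanoparticle arrays and between 5.64 and 5.73 on ion arrays. Of 8 endothelial markers, 7 had a negative difference and all 8 lay below percentile 50, where negative differences prevailed, as described below. The endothelial median was -0.10, but -0.03 without ion replicate 1 and 0.005 with the array spread as a covariate. Endothelial, fibroblast, stem cell and enteroendocrine lists had overlapping means, and the stem cell factor gene ASCL2 differed by 0.21. Their part in the differences above was not tested. In bulk RNA, fewer cells of a type and less RNA per cell cannot be told apart.

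With the deposited values, the direction of a difference went with the level of the gene. Of the 9887 genes above the median level, 464 had an unadjusted p under 0.05 and a higher value in nanoparticle arrays and 97 a lower one, whereas of the dimmer genes 236 were higher and 673 lower. With quantile normalization of the 6 arrays the bright genes gave 275 higher and 251 lower and the dim genes 424 higher and 406 lower. With the standard deviation of each array as a covariate, an alternative chosen after seeing the data, the counts were 194 and 147 for bright genes and 234 and 309 for dim genes. Without ion replicate 1, the array of narrowest spread, they were 258 and 99 for bright genes and 210 and 369 for dim genes. With median centring the bright genes gave 277 higher and 181 lower and the dim genes 147 higher and 921 lower. With hybridization control scaling the counts were 38 and 84 for bright genes and 32 and 633 for dim genes. Other settings kept the split of the deposited values. Without ion replicate 2 the counts were 481 and 110 for bright genes and 250 and 910 for dim genes. Without ion replicate 3 they were 685 and 61 for bright genes and 283 and 686 for dim genes. In the deposited values the bright metallothioneins, CEACAM6 and the proteasome list ran against the direction prevailing at their level, while cholesterol synthesis and the ATF4 response ran with it. With the array spread as a covariate the medians were -0.09 for the proteasome, 0.07 for cholesterol synthesis and 0.14 for the ATF4 response, and the bright metallothioneins ranged from -0.75 to -0.52.

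**Figure D5:**
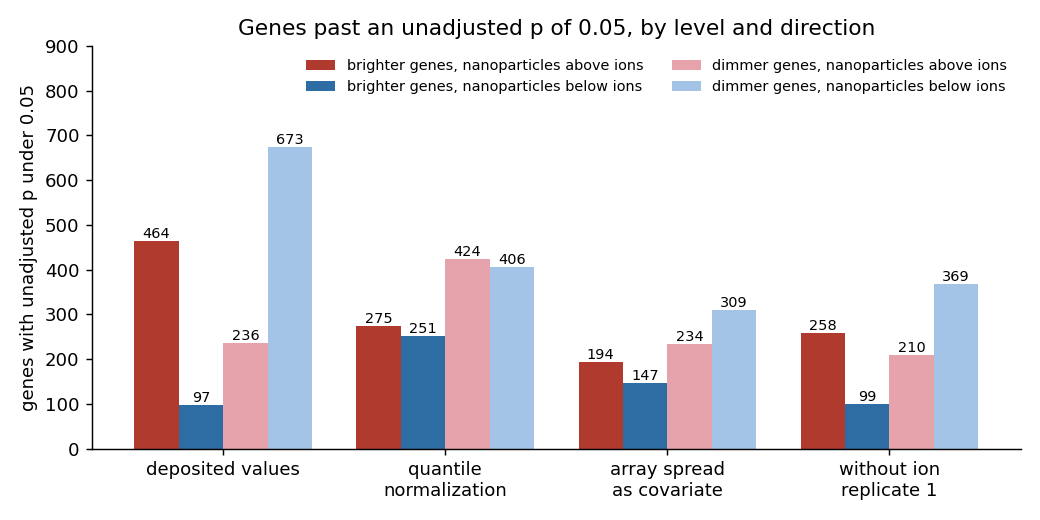
Number of genes with an unadjusted p under 0.05 in limma, split by level (above or below the median of all genes) and by direction, with the deposited values and under 3 other settings. The bars for bright genes stand at 464 higher and 97 lower with the deposited values and at 275 and 251 after quantile normalization.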

How the data were processed

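Total RNA of 12 Caco-2 samples was labelled from 250 ng and hybridized to 3′ expression arrays, per the labels' protocols. The authors deposited 1 log2 value for each probe set and array. Per the submitters' processing notes the tools were RMA and Partek, with versions not given in the sources used here. The column means were equal at 5.57, the scale is log2 from its range, no gene centring was seen, the array medians lay between 4.73 and 4.79 for the 6 arrays, and further filtering is unknown. RMA usually equalizes arrays, so a change in total mRNA per cell does not show. There are no detection calls, and the number of arrays limits the precision.

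Of 54675 probe sets, 62 were controls, 41091 had 1 gene symbol in the platform annotation, 1801 several and 11721 none listed. Symbols were updated through gene IDs for 41037 probe sets. Where a gene had several 1-symbol probe sets, the one brightest on average across the 12 arrays stood for it, and no filter on low values was applied. Named genes with several probe sets numbered 95, and in 47 all had 1 sign. No 2 arrays were identical.

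limma 3.58.1 in R 4.3.3 fitted only the 6 arrays, with 4 degrees of freedom from residuals and 6.75 from the prior, and its two-sided p was used with Benjamini-Hochberg adjustment over 19775 genes and a threshold of 0.05. The model was tested on simulated data. Named genes were up to 10 called genes per direction, filled with the smallest p among genes above the median level whose groups did not overlap, up to 4 members of each of 34 lists with the largest differences, the metallothioneins and 7 stress genes. The lists and the comparison were chosen with earlier results of these data known. The lists had 693 entries, 629 of them measured. Promoters are from RefSeq. Alternatives were other normalizations and control scalings, a filter on dim genes, other uses of probe sets, other variance models, 4 groups in 1 model, other thresholds and leaving out each array. Figures were drawn with matplotlib 3.10.9.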

Additional observations from a re-analysis of the deposited data

How the results depend on the processing

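The count of 0 genes at an adjusted p under 0.05 held under all alternatives but 1. Scaling on the hybridization controls called 1 gene, AKR1B10, while moving the median of all genes to -0.09. At an unadjusted p under 0.05 the counts ran from 288 under poly-A control scaling and 787 under hybridization scaling to 1751 without ion replicate 2, against 1470, and leaving out single arrays gave 936 to 1751. The lowest adjusted p ran from 0.0077 to 0.996, and with array weights it was 0.055. Leaving out each array called 0 genes each time. No paired analysis was possible because the labels give no replicate numbers shared between groups.

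Of 1424 gene values under alternatives, 36 changed sign. ATP7B had -0.012 with the array spread as covariate. MT3 had 0.033 with quantile normalization, 0.073 with array weights, 0.073 with the array spread as covariate and -0.086 to 0.088 without single arrays. MT4 had 0.022 with array weights, 0.084 with the spread covariate and -0.251 to 0.012 without single arrays. SRXN1 had -0.032 with quantile normalization, -0.026 with median centring, -0.029 with poly-A scaling, -0.079 with hybridization scaling, -0.004 with array weights, -0.006 with the spread covariate and -0.074 to 0.129 without single arrays. TXNRD1 had -0.007 with median centring, -0.010 with poly-A scaling, -0.060 with hybridization scaling, -0.068 with the mean of probe sets, -0.011 with array weights, -0.037 with the spread covariate and -0.033 to 0.121 without single arrays. DNAJB1 had -0.005 with quantile normalization, -0.005 with median centring, -0.009 with poly-A scaling, -0.058 with hybridization scaling and -0.009 to 0.096 without single arrays. HSPA6 had 0.000 with quantile normalization and -0.378 to 0.303 without single arrays. The causes were not tested. The 6 bright metallothioneins kept negative values in every alternative that gave 1 value a gene, between -0.77 and -0.22. Of 544 list medians under alternatives, 12 moved by more than the spread between arrays, 9 of them with hybridization scaling.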

Other observations

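The probe sets with several gene symbols or none listed, which entered no comparison, were tested in the same way after the data were seen. Of 13522 such probe sets, 0 had an adjusted p under 0.05 in limma, 873 (6.46%) had an unadjusted p under 0.05, the lowest adjusted p was 0.76 and none differed 2-fold or more.

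In the same fit of 6 arrays each, nanoparticles at 2.5 µg/mL against medium and ions against medium also called 0 genes, with an unadjusted p under 0.05 in 4.65% and 4.95% of genes. These comparisons share their medium arrays. The 3′ minus the 5′ probe set of ACTB, which reflects RNA integrity, lay between 0.55 and 0.96 on the nanoparticle arrays and between 0.45 and 0.95 on the ion arrays, with replicate 3 the highest in both groups. For GAPDH the same measure lay between 0.10 and 0.17 on the nanoparticle arrays and between 0.10 and 0.23 on the ion arrays. There replicate 1 was the highest in both groups.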
